A study of Rattus norvegicus with 4 samples.

Results

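The enzymes that make nitric oxide, polyamines and urea from arginine were followed in colon tissue of rats with and without mesenchymal stem cell transplantation (MSCT). The group was defined by name as 10 genes: Nos2, Nos3, Arg1, Arg2, Ass1, Asl, Odc1, Amd1, Sat1 and Srm. Each of the 10 had a single row on the array by its RefSeq accession. Of these, 9 held a value on all 4 arrays and 1, Nos2, was blank on all 4. They stand among 6968 named genes and 18350 rows with a value.

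Arginine is the shared substrate of competing enzymes. Nitric oxide synthases turn it into nitric oxide and citrulline, and argininosuccinate synthase (Ass1) and argininosuccinate lyase (Asl) rebuild arginine from citrulline. Arginases (Arg1, Arg2) split it into urea and ornithine. Ornithine decarboxylase (Odc1) converts ornithine to putrescine, S-adenosylmethionine decarboxylase (Amd1) supplies the aminopropyl groups, and spermidine synthase (Srm) joins them to spermidine. Spermidine/spermine acetyltransferase (Sat1) starts polyamine breakdown. In colitis, inducible nitric oxide synthase (Nos2) is known from activated macrophages and inflamed epithelium, and polyamines are needed by dividing crypt cells.

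The data were 4 one-color NimbleGen arrays of total RNA, 1 array per male rat, from 2 control rats and 2 MSCT rats. According to the methods, IBD (inflammatory bowel disease) was induced in Sprague Dawley rats by TNBS (trinitrobenzene sulfonic acid) in ethanol, put into the colon, and the MSCT rats received purchased, cultured, GFP-labeled mesenchymal stem cells through the tail vein a day later. Tissue was cut from the lesion region. The paper and the design text treat the control animals as IBD rats without MSCs, whereas the sample descriptions call them normal rats. If the latter holds, colitis and transplantation cannot be told apart. The labels give neither age nor day, and the paper names more than 1 day for the chips. Markers of colon epithelium were bright on all 4 arrays (Slc26a3, an apical anion exchanger, between 14.61 and 14.99 on the log2 scale). Array medians lay between 9.73 and 9.80. Control replicate 2 correlated more closely with MSCT replicate 2 (r = 0.959 across rows) than with control replicate 1 (r = 0.953), which are descriptions over rows that are not independent. All values given for single genes are log2 intensities, and levels are compared between arrays and not between genes.

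None of the 9 measured enzymes passed the test between the groups, although Arg2 and Srm lay roughly at the 2-fold limit. The comparison used limma, in which rows lend each other information on the variance. By limma, 0 of the 9 had an adjusted p under 0.05 (smallest 0.436) and 0 had an unadjusted p under 0.05, and a plain equal-variance test of each row also gave 0 for both. Over all 18350 rows, 12.0% had an unadjusted p under 0.05 and 0% an adjusted p under 0.05. A screen asked for an unadjusted limma p under 0.05 and over 2-fold. It was passed by 2.12% of all rows in the higher direction and by 2.51% in the lower direction, and by 0 enzymes. Fewer rows passed with p-values of the plain equal-variance test. Only the limits of the screen were taken from the study, not the limma p-values. In 7 of the 9 enzymes the MSCT mean was higher, and the median difference was 0.33 on the log2 scale, beside -0.02 over all rows, where 48% were higher. The arrays of both groups did not overlap for 5 enzymes, 4 higher (Nos3, Odc1, Amd1, Srm) and 1 lower (Arg2). Over all rows 45.8% did not overlap, 21.3% higher and 24.5% lower, and the split into 4 higher and 1 lower is a description. With so few arrays the smallest two-sided p of an exact permutation test is 0.333, and every limma p therefore leans on the variance of other rows.

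**Figure D1:**
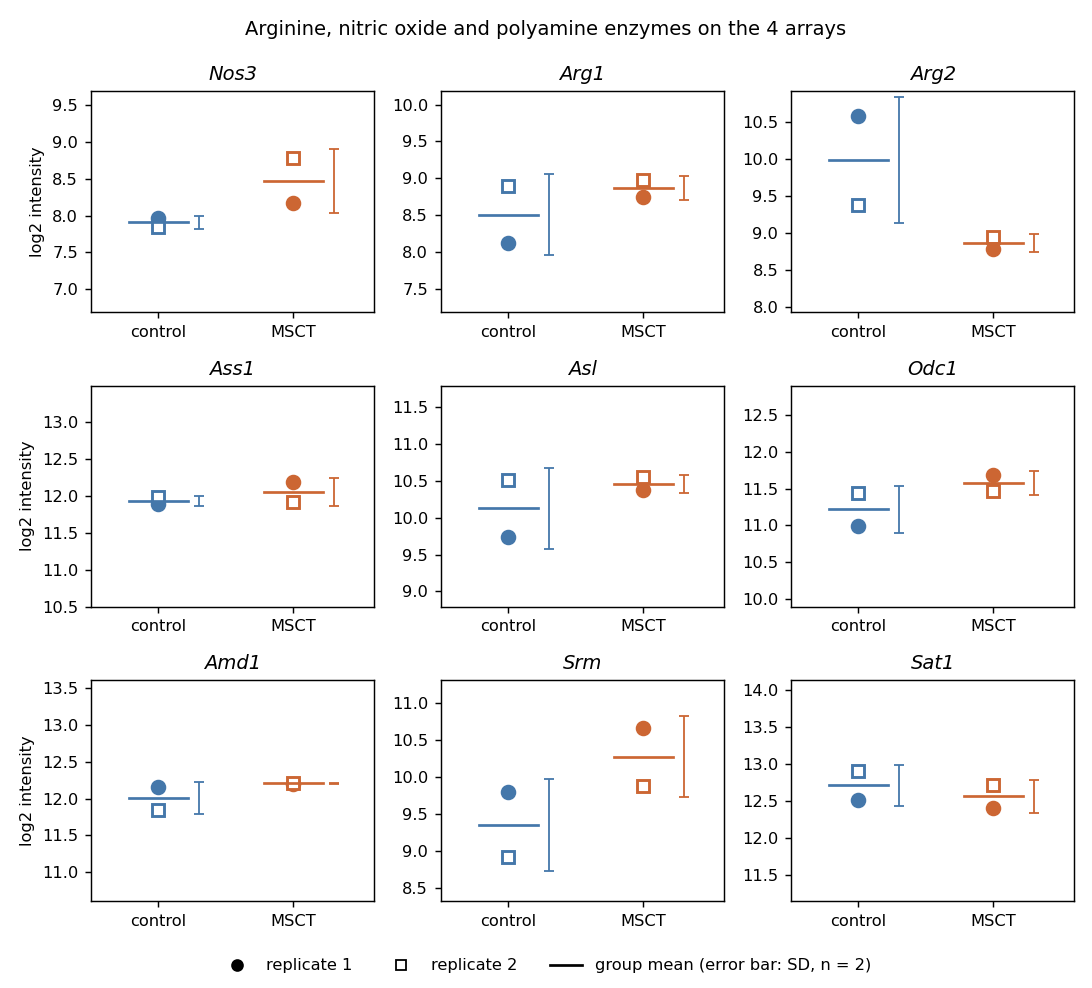
Log2 intensity of the 9 measured enzymes on each array, 1 panel per gene, with control in blue and MSCT in orange (circle, replicate 1; square, replicate 2; line, group mean; error bar, SD, n = 2). Every vertical axis spans 3 log2 units around the gene's mean. Both MSCT arrays lie below both control arrays for Arg2 (8.78 and 8.95 against 10.59 and 9.38). For Srm both lie above (10.66 and 9.88 against 9.80 and 8.91), the lower MSCT array just above the higher control array.

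Of the nitric oxide synthases, the inducible form Nos2 gave no value. Its row (NM_012611) was blank on all 4 arrays, as were 30.5% of all rows, by a rule that is not described, so neither a level nor its absence can be read from it. The endothelial form Nos3 (NM_021838), which acts in vessel walls, stood at 7.97 and 7.85 in controls and at 8.17 and 8.78 after MSCT. Both MSCT arrays were above both control arrays, by a margin carried mainly by MSCT replicate 2. The difference was 0.56 (standard error 0.28, 95% interval -0.17 to 1.30; limma adjusted p = 0.501), or 0.26 without MSCT replicate 2 and 0.87 without MSCT replicate 1. The neuronal form Nos1, of the enteric nerves, was read at 7.56 and 8.09 in controls and at 6.40 and 7.87 after MSCT, and its arrays overlapped.

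Markers of the vessel wall were read beside Nos3. The adhesion molecule Pecam1 was at 10.16 and 9.52 in controls and at 9.96 and 10.30 after MSCT. The tight junction gene Cldn5 was at 9.94 and 9.60 and at 9.82 and 10.45. In both, as in Nos3, control replicate 2 was lowest and MSCT replicate 2 highest. Eng, a coreceptor for TGF-beta ligands, was higher by 0.85 (standard error 0.19, limma adjusted p = 0.298). It was the 1 gene of 4 measured endothelial markers with an unadjusted limma p under 0.05, beside 12.0% of all rows. Kdr, the remaining marker, differed by 0.05 with overlapping groups. The summed intensity of the 4 markers was 2503 and 1829 in controls against 2379 and 3222 after MSCT. In whole tissue, a change in the number of cells of a type and a change in RNA per cell cannot be told apart, and the part of the vessels in the Nos3 values was not tested.

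The arginases had differences of opposite sign, neither past the test. Arg2 (NM_019168), the mitochondrial arginase of many tissues outside the liver, read 10.59 and 9.38 in controls against 8.78 and 8.95 after MSCT. The MSCT arrays were close together and below both controls, while the controls were 1.21 apart. The group means were 9.99 ± 0.85 and 8.86 ± 0.12 (SD, n = 2 each). The difference of -1.12 (standard error 0.45, 95% interval -2.31 to 0.07, 2.17-fold lower) exceeded the 2-fold limit but had an unadjusted limma p of 0.0598 and an adjusted p of 0.436. It depended on the controls, being -0.52 when control replicate 1 was left out and -1.72 when control replicate 2 was. Arg1 (NM_017134), the cytosolic arginase known from liver and from macrophages in tissue repair, was at 8.12 and 8.89 in controls and at 8.75 and 8.98 after MSCT. Only control replicate 1 stood apart, and the groups overlapped. The difference was 0.36 (standard error 0.33, 95% interval -0.51 to 1.23), and -0.027 without control replicate 1.

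Most macrophage markers were higher in the MSCT group, none with an adjusted p under 0.05 (smallest by limma 0.26). Over all rows, 12.0% had an unadjusted limma p under 0.05, and 2.12% passed the screen in the higher direction. Of 5 measured markers, 4 had an unadjusted p under 0.05 and were higher: Cd68, a lysosomal glycoprotein (by 1.29), Aif1 (by 1.39), the growth factor receptor Csf1r (by 1.00) and Adgre1 (by 0.64), the first 3 of them past the screen. Cd14 differed by -0.04, and Itgam was blank on all arrays. The summed intensity of the 5 markers was 12046 and 13550 in controls and 14509 and 17086 after MSCT. Most of each sum came from Cd14, at 9308 and 10814 in controls and 8986 and 10578 after MSCT. The part of macrophages in the Arg1 values was not tested.

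The 3 named genes closest to Arg2 in their pattern over the 4 arrays, by Euclidean distance of log2 values centred on each gene's mean among 6967 genes, were Pou3f3 (distance 0.19), Chi3l1 (0.27) and Adh7 (0.30). All 3 had control replicate 1 highest, as Arg2 did. Pou3f3, a transcription factor, read 8.42 and 7.38 in controls and 6.84 and 6.81 after MSCT. The alcohol dehydrogenase gene Adh7 read 10.52 and 9.57 and then 9.13 and 9.04. With 4 arrays such a likeness is only a description.

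Neither enzyme of the citrulline to arginine steps passed the test, and the groups overlapped for both. Ass1 (NM_013157) read 11.89 and 11.98 in controls against 12.19 and 11.92 after MSCT. The highest and the lowest array were closer than for any other of the 9 enzymes. The difference was 0.12 (standard error 0.20, 95% interval -0.42 to 0.67), an interval that does not reach 2-fold in either direction. Asl (NM_021577) was at 9.74 and 10.51 in controls and at 10.37 and 10.55 after MSCT, so that 3 arrays were alike and control replicate 1 was lower. Its difference was 0.33 (standard error 0.32, 95% interval -0.52 to 1.19), and -0.053 without control replicate 1.

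Control replicate 1 was the lowest array for Asl, Arg1, Odc1 and, by a small margin, Ass1 and the highest for Arg2. The same array was lowest for some other genes, chosen after their values were seen. Cps1, the mitochondrial enzyme that feeds the urea cycle, was at 8.05 there and between 9.32 and 9.60 on the other arrays. Carbonic anhydrase Car2 was at 12.82 there and between 13.96 and 13.99 elsewhere. The 6 measured markers of small intestinal enterocytes were all higher in the MSCT group, as were 48% of all rows. By limma, 4 of them had an unadjusted p under 0.05, beside 12.0% of all rows, and none an adjusted p under 0.05. The fatty acid carrier Fabp1 differed most (6.34 and 8.18 against 11.40 and 11.14). The summed intensity of these 6 markers was 4790 and 8473 in controls and 15125 and 13758 after MSCT. That of the 9 measured colon epithelium markers was 160557 and 161976 against 181226 and 176315. Whether the epithelial makeup of the control replicate 1 piece bears on Asl, Arg1 and Arg2 was not tested.

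The 3 enzymes of polyamine synthesis were higher on both MSCT arrays than on both control arrays, as were 21.3% of all rows. The margins between the groups were narrow, and each 95% interval includes 0. Odc1 (NM_012615), the first and tightly regulated step, was at 11.00 and 11.44 in controls and at 11.69 and 11.46 after MSCT. The groups touched, with MSCT replicate 2 just above control replicate 2. The difference was 0.36 (standard error 0.25, 95% interval -0.30 to 1.01), and 0.13 without control replicate 1. Amd1 (NM_031011) was at 12.16 and 11.85 in controls and at 12.20 and 12.21 after MSCT. Here control replicate 2 alone was lower, and the difference of 0.20 (standard error 0.21, 95% interval -0.36 to 0.75) did not reach 2-fold at either end.

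Srm (NM_053464) had the largest positive difference of the enzymes. It read 9.80 and 8.91 in controls against 10.66 and 9.88 after MSCT. The lower MSCT array was just above the higher control array, and the replicates of each group lay 0.88 and 0.78 apart. The means were 9.35 ± 0.62 and 10.27 ± 0.55 (SD, n = 2 each). The difference was 0.92 (standard error 0.43, 95% interval -0.24 to 2.07, 1.89-fold higher; limma adjusted p = 0.491), and leaving out control replicate 2 gave 0.48, leaving out control replicate 1 gave 1.36. Sat1 (NM_001007667), the breakdown enzyme, was at 12.51 and 12.91 in controls and at 12.40 and 12.72 after MSCT. The groups overlapped, and the difference was -0.15 (standard error 0.25, 95% interval -0.81 to 0.51).

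Promoters are printed for Odc1, Amd1 and Srm, the members of 1 route whose values did not overlap in the same direction. They run from 250 bases before to 50 bases after the start site and come from RefSeq on build GRCr8, 5′ to 3′ on the gene's strand. This table held a promoter for 7 of the 10 enzymes, without Nos2, Arg1 and Arg2. Capitals mark 3 motifs searched on both strands: the E-box, the GC box and the TATA box. The E-box was searched as CACGTG, which reads alike on both strands and is bound by Myc among other factors. The GC box was searched as GGGCGG, and as its reverse complement where it lies on the opposite strand. The TATA box was searched as TATAAA in the same way. No matches overlap in the 3 sequences.
Odc1, chr6:46058415-46058714, plus strand: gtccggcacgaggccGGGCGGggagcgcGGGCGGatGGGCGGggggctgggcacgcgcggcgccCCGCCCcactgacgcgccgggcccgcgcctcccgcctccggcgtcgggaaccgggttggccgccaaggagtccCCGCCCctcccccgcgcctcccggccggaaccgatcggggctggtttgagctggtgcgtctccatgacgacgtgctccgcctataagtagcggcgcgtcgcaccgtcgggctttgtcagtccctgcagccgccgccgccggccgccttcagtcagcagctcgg
Amd1, chr20:45265933-45266232, minus strand: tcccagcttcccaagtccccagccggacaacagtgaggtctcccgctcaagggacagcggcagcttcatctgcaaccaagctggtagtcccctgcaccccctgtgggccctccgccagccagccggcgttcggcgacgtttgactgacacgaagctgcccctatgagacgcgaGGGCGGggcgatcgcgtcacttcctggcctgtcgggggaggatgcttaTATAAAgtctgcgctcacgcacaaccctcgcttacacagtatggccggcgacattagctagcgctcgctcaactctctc
Srm, chr5:164308752-164309051, plus strand: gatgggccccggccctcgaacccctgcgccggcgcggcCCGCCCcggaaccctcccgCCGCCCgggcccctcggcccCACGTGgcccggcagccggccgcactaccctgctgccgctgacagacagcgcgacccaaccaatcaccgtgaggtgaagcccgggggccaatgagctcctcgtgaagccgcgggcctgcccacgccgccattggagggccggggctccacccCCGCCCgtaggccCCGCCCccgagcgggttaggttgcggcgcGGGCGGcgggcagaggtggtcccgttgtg

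Of the 7 promoters, only that of Srm held the E-box, with its first base at -173 from the start site. The E-box was found in 6.42% of the 33469 promoters of the same length. The GC box was matched 5 times in Srm, 5 times in Odc1 and once in Amd1, and was present in 33.1% of all promoters. Amd1 alone of these 3 held the exact letters TATAAA, at -29, which were present in 14.2% of all. Variants of the TATA box were not searched. The GC content was 77.3% for Odc1, 62.7% for Amd1 and 77.7% for Srm. These matches describe letters in the window and not binding.

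**Figure D2:**
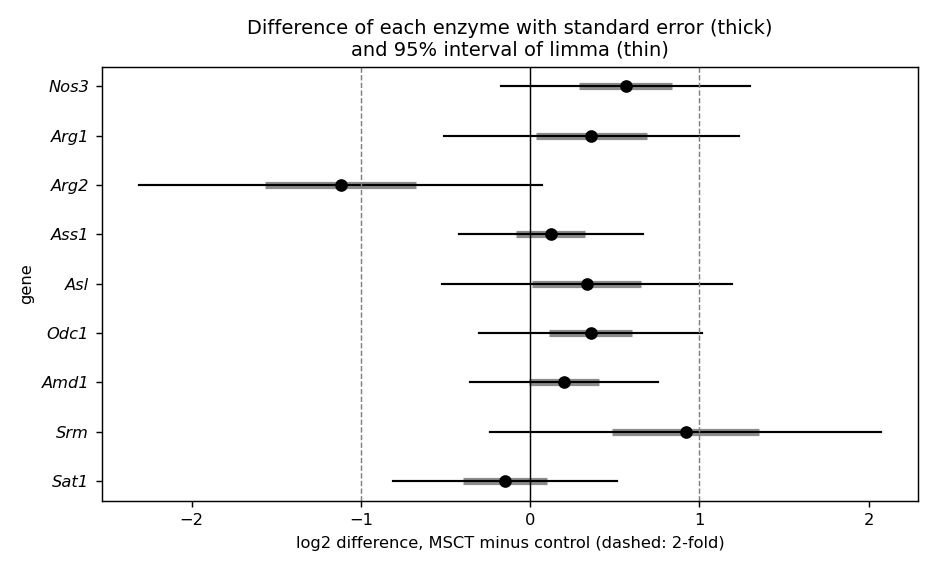
Log2 difference (MSCT minus control) of each enzyme, with the standard error (thick line) and the 95% interval of limma (thin line). Dashed lines mark 2-fold. Every interval includes 0, and those of Ass1, Amd1 and Sat1 stay inside 2-fold.

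The sizes of the differences depended on single arrays. The median distance between the control arrays was 0.45 for the enzymes and 0.31 over all rows, while between the MSCT arrays it was 0.23 for the enzymes and 0.24 over all rows. For Nos3, Odc1, Amd1, Srm and Arg2 the groups did not overlap, so leaving out 1 array could not change the sign. The size did change, with ranges of 0.26 to 0.87 for Nos3, 0.13 to 0.58 for Odc1 and 0.04 to 0.35 for Amd1. The range was 0.48 to 1.36 for Srm and -1.72 to -0.52 for Arg2. Arg1, Asl, Ass1 and Sat1 changed sign in at least 1 case.

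**Figure D3:**
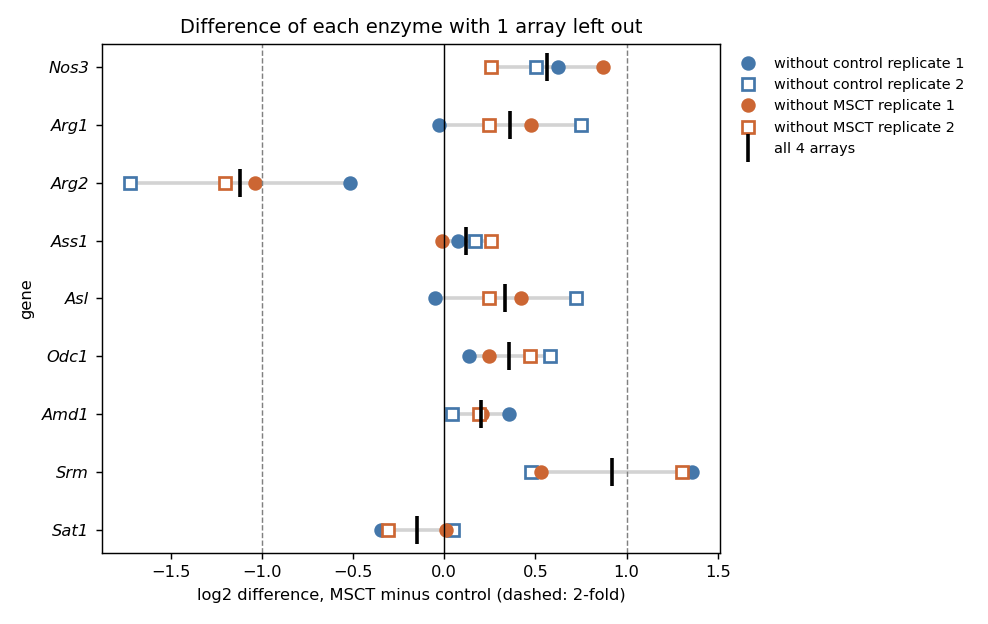
Log2 difference (MSCT minus control) of each enzyme with all 4 arrays (black bar) and with each array left out in turn (blue, a control array; orange, an MSCT array; circle, replicate 1; square, replicate 2). Arg2 spans -1.72 to -0.52, both ends set by a control array, and Arg1 and Asl fall just below 0 without control replicate 1 (-0.027 and -0.053).

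The wider pathway was read from a list of 65 further genes. Of these, 41 were measured, 4 were blank (Slc7a3, Slc3a1, Gucy1a2 and Gucy1b2) and 20 were not matched to a row and are not analysed here. By limma, 5 of the 41 had an unadjusted p under 0.05 (3 higher, 2 lower), beside 12.0% of all rows, and 1 passed the screen. By the plain equal-variance test 8 of 41 had one, beside 9.66% of all rows. None had an adjusted p under 0.05 by either test, and the smallest by limma was 0.291. The median difference was 0.20, beside -0.02 over all rows. Of the 41 genes, 26 were higher, beside 48% of all rows. The arrays did not overlap for 23 of 41 genes, 18 higher and 5 lower, beside 45.8% of all rows, 21.3% higher and 24.5% lower.

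Of the 5 genes, 4 belong to the 14 measured genes that supply the cofactor of nitric oxide synthases or regulate them. An unadjusted limma p under 0.05 was found in 12.0% of all rows. In this class 8 genes were higher and 6 lower, while 48% of all rows were higher. The median difference was 0.04, beside -0.02 over all rows, and none had an adjusted p under 0.05. Gchfr encodes the feedback regulatory protein of GTP cyclohydrolase, the enzyme that starts synthesis of the cofactor tetrahydrobiopterin. It was at 10.96 and 10.59 in controls and at 9.77 and 9.37 after MSCT. Both MSCT arrays were well below both controls, and the difference of -1.21 (standard error 0.26; limma adjusted p = 0.291) passed the screen, also with any 1 array left out (-1.41 to -1.01).

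Gch1, GTP cyclohydrolase itself, was at 8.82 and 8.86 in controls and at 9.51 and 9.27 after MSCT, a difference of 0.55 (standard error 0.20; adjusted p = 0.406). The enzyme and its regulatory protein thus lay on opposite sides, without overlap in either. Pts and Qdpr, enzymes that make and recycle the cofactor, had smaller differences of 0.03 and 0.21, and neither had an unadjusted p under 0.05.

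Nos1ap, an adaptor of the neuronal synthase, was at 10.71 and 10.63 in controls and at 9.67 and 9.96 after MSCT, a difference of -0.85 (standard error 0.21; adjusted p = 0.32). Prmt1, a protein arginine methyltransferase whose products yield the synthase inhibitor asymmetric dimethylarginine, was at 10.90 and 11.05 and then at 11.60 and 11.57, a difference of 0.61 (standard error 0.19; adjusted p = 0.354). Replicates lay closer together than the groups in both genes. Ddah1 and Ddah2, which degrade that inhibitor, differed by -0.05 and 0.06.

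Among 4 measured nitric oxide effectors, none had an unadjusted p under 0.05. Prkg2, a cGMP-dependent kinase of the intestinal epithelium, differed by 2.19 (standard error 0.89; adjusted p = 0.446), but its values were widely spread: 6.32 and 8.56 in controls and 10.30 and 8.95 after MSCT. Without control replicate 1 it was 1.07. Pde5a, the phosphodiesterase that degrades cGMP, was at 12.63 and 12.08 in controls and at 11.71 and 11.68 after MSCT, a difference of -0.66 (standard error 0.26; adjusted p = 0.43). Gucy1a1, a subunit of the nitric oxide receptor guanylate cyclase, differed by -0.22 with groups that did not overlap, while the partner subunit Gucy1b1 differed by 0.27 with groups that did.

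Of 8 further polyamine genes, 6 were higher, beside 48% of all rows. An unadjusted limma p under 0.05 was found for 1 of the 8, beside 12.0% of all rows. The 1 gene was Aoc1, the diamine oxidase that breaks down putrescine and histamine in the gut epithelium. It was at 12.39 and 12.53 in controls and at 13.54 and 13.23 after MSCT, so that the groups were clearly apart. The difference was 0.92 (standard error 0.21; limma adjusted p = 0.309), 1.89-fold and so below the fold limit. Antizyme Oaz1, the inhibitor of ornithine decarboxylase, differed by 0.35 and its decoy Azin1 by -0.04. Spermine synthase Sms differed by 0.26, Eif5a, the target of spermidine-derived hypusine, by 0.23, the hypusine enzymes Dohh and Dhps by 0.33 and 0.05, and Mat2a, which makes S-adenosylmethionine, by -0.09.

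Of 10 further genes of arginine supply and 5 transporters, none had an unadjusted p under 0.05. The mitochondrial ornithine carrier Slc25a15 was at 10.71 and 11.27 in controls and at 11.48 and 11.66 after MSCT, a difference of 0.58 (standard error 0.27; adjusted p = 0.484). Ornithine aminotransferase Oat differed by 0.24, the creatine enzyme Gamt by 0.44 and the cationic amino acid transporter Slc7a2 by -0.31. Agmatinase Agmat and the antizyme inhibitor Azin2 differed by -0.09 and 0.07, with overlapping groups.

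**Figure D4:**
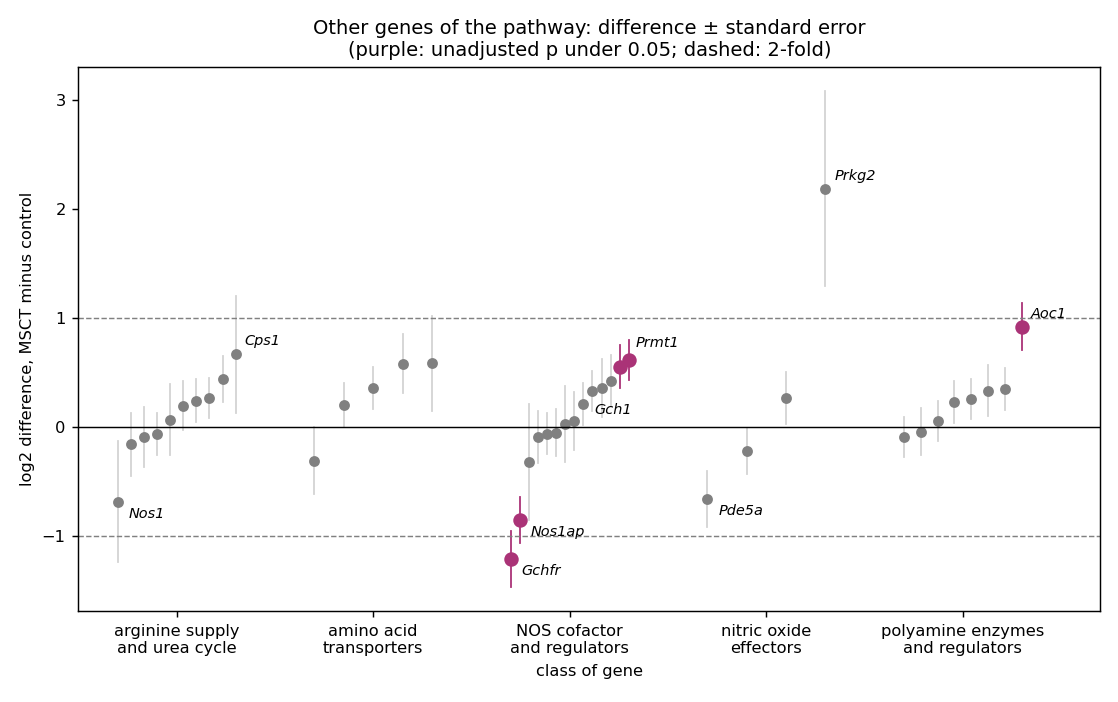
Log2 difference (MSCT minus control) of the 41 measured pathway genes outside the 10 enzymes, by class, with standard errors. Purple points are the 5 genes with an unadjusted p under 0.05, and dashed lines mark 2-fold. Gchfr at -1.21 is the lowest point, and Prkg2 at 2.19 the highest and the one with the widest error.

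The 5 measured proliferation markers were read because polyamine synthesis accompanies cell division. Of these, 4 were lower and 1 higher in the MSCT group, while 48% of all rows were higher. Their median difference was -0.34, beside -0.02 over all rows. Only the mitotic kinase gene Cdk1 had groups that did not overlap, and it passed the screen (9.75 and 9.74 against 8.54 and 8.48). Over all rows, 45.8% did not overlap, 24.5% of them all in the lower direction, and 2.51% passed the screen as lower. The summed intensity of the 5 markers was 5708 and 7820 in controls and 5791 and 6296 after MSCT. Its relation to Odc1 and Srm was not tested. Smooth muscle markers (6 measured) had a median difference of 0.02 and no gene with an unadjusted p under 0.05.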

How the data were processed

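RNA of 4 rat colons, 2 control and 2 MSCT, was measured on one-color NimbleGen arrays, 1 per rat. The authors scanned them, analysed them with NimbleScan and deposited linear intensity values per RefSeq transcript, and the submitters' processing notes name RMA without settings. The rule for blank rows is not given in the sources used here. Of 26420 deposited rows, 18350 have a value on all arrays. Precision is limited by how few arrays there are. Values were taken as log2 with no pseudocount, scaling or filter, and 1 row per gene (the highest mean) was read. Rows were named by unversioned accession through the RefSeq table of GRCr8 (38.5% of measured rows named), which was used for names only. limma 3.58.1 in R 4.3.3 (lmFit, eBayes) was fitted over all 18350 rows with Benjamini-Hochberg adjustment over them. Its p-values rest on the spread between single rats together with the variance of other rows. The screen was an unadjusted p under 0.05, by limma unless another test is named, and over 2-fold. With p-values of a plain equal-variance test it called 388 rows, 191 higher and 197 lower, the counts that the paper reports for its chips. The text names all 10 enzymes and those pathway genes with an unadjusted p under 0.05 or, up to 5 in each direction, with the largest differences without overlap; the others were named after their values were seen. The members and lists were chosen with earlier results of these data known. Of the marker lists, neutrophil (1 measured gene, S100a9, difference 0.54), hepatocyte (5 genes, median 0.67, 1 past the screen) and mast cell (2 genes, median 0.04) are given here only. Alternatives were quantile normalization, a plain equal-variance test per row (the one-way analysis of variance that the methods name in general, not for the chips), no rows in the dimmest 25% or 50%, array medians set equal, an intensity-dependent variance (eBayes with trend and robust options), a pseudocount of 50, the replicate number as a block, each array left out in turn and the mean of a gene's rows. Names were matched in Python 3.11.15 (pandas 2.3.3) and figures drawn in matplotlib 3.10.9.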

Additional observations from a re-analysis of the deposited data

How the results depend on the processing

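Of 114 values of the 9 measured enzymes under the alternatives, 103 kept their direction and their side of the screen, 6 newly passed it and 5 had the other sign. The number of enzymes past the screen was 1 in place of 0 without the dimmest 25% of rows, with an intensity-dependent variance and with a pseudocount of 50 (Arg2 each time; its adjusted p ranged from 0.204 to 0.791 over all alternatives). With 1 array left out it lay between 0 and 1 (Srm without control replicate 1 and without MSCT replicate 2, Arg2 without control replicate 2). With 1 array left out, the difference changed sign for Arg1 (range -0.027 to 0.75) and Asl (-0.053 to 0.72) without control replicate 1, for Ass1 (-0.013 to 0.26) without MSCT replicate 1, and for Sat1 (-0.35 to 0.050) without control replicate 2 and, at 0.010, without MSCT replicate 1. Of the pathway genes, 2 in place of 1 passed the screen without the dimmest 25% of rows, with an intensity-dependent variance and with a pseudocount of 50 (Gchfr and Prkg2), and between 1 and 4 with 1 array left out, Gchfr each time. The adjusted p of Gchfr ranged from 0.0382 (intensity-dependent variance; 0.0407 without the dimmest 50% of rows) to 0.643, and that of Aoc1 from 0.0176 (intensity-dependent variance) to 0.72. Over all rows, the screen called 850 rows, 388 by the plain equal-variance test, 251 without the dimmest 50% of rows and between 934 and 1565 with 1 array left out. Without the dimmest 50% of rows, 6 of the 9 enzymes were tested, and Nos3, Arg1 and Arg2 were not. An adjusted p under 0.05 was given to 0 rows by limma as fitted, to 4 without the dimmest 25% of rows, to 247 without the dimmest 50% of rows and to 387 with an intensity-dependent variance, with none of the enzymes among them. The cause of these shifts was not tested. With the replicate block, which pairs arrays of the same number, 971 rows, 1 pathway gene and 0 enzymes passed the screen, and Srm had an unadjusted limma p of 0.0104 and an adjusted p of 0.284 (0.232 to 0.88 over all alternatives). The correlation of the deviations of same-numbered arrays was 0.234 across rows, and the labels do not tie the numbers to a shared litter or day.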
